A study of Mus musculus with 165 samples.

Results

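The genes described here were 42 genes of the cell division cycle and of DNA replication, out of 55471 gene identifiers in each of the 2 count tables, which were for brain and liver. They were chosen by name: the Ensembl identifiers of the listed symbols were looked up in both tables, and all 42 were found. By role they comprised 2 markers of cycling cells, 7 cyclins and partners of Cdk1, 7 mitotic kinases and regulators of anaphase, 6 kinetochore and checkpoint genes, 7 spindle and cytokinesis genes, 10 genes of the replicative helicase and clamp, and 3 genes of nucleotide synthesis.

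Polyadenylated RNA was sequenced from brain and liver of male C57BL/6J/Ukj mice, an inbred strain, which were kept for ageing only and received no treatment that the labels name. The ages were 3, 9, 15, 24 and 28 months. Brain libraries numbered 15, 16, 16, 17 and 18 at these ages and liver libraries 16, 16, 16, 17 and 18, and a brain and a liver that share age and number are from 1 mouse. The labels name no altered allele, the study used 1 sex only, and each library was made in 1 of 3 library preparations (preps) that each held every age.

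A dividing cell copies its DNA in S phase and separates the copies in mitosis. Cyclin E with Cdk2 and the E2F factors start S phase, in which the Mcm helicase, with Cdc45 and the GINS complex, unwinds DNA, the clamp Pcna holds the polymerases, and ribonucleotide reductase and thymidylate synthase supply nucleotides. Cyclin B with Cdk1 starts mitosis, kinetochore and spindle proteins attach and move the chromosomes, and Cdc20 and Ube2c help to destroy the mitotic cyclins. In the adult brain dividing cells are rare and are mainly oligodendrocyte precursors, neural precursors of the hippocampus and the ventricle wall, and microglia. Hepatocytes of the adult liver are mostly quiescent but can divide after loss of tissue, and immune cells in the liver can also divide.

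Most genes of mitosis are held silent in quiescent cells through a short promoter motif, the cell cycle homology region, which the MuvB complex reads, usually with a CCAAT box nearby. Many S phase genes carry E2F sites instead. The promoters of the called member with the greatest change from 3 to 28 months in the brain (Ccnb1, cyclin B1) and in the liver (Mki67, the Ki-67 antigen that coats mitotic chromosomes) are printed below. Those of Top2a, the topoisomerase that untangles replicated DNA, and Mcm6, a helicase subunit, were added after the values were seen, because both genes were called in opposite directions in the 2 tissues. Each line gives 200 bases before to 30 bases after the start site, 5′ to 3′ on the gene's strand, from RefSeq on GRCm38.p6, with motif matches in capitals. All 4 genes lie on the minus strand.
Ccnb1, chr13:100786457-100786686: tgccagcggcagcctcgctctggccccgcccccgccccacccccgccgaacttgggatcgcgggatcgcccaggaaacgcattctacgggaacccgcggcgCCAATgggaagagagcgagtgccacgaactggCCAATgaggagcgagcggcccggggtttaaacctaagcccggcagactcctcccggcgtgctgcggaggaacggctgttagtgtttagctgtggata
Mki67, chr7:135716350-135716579: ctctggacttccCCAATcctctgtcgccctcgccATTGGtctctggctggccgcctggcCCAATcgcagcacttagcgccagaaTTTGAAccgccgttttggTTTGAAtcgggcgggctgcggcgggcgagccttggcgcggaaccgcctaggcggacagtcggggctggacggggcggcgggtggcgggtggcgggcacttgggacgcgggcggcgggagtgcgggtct
Top2a, chr11:99024160-99024389: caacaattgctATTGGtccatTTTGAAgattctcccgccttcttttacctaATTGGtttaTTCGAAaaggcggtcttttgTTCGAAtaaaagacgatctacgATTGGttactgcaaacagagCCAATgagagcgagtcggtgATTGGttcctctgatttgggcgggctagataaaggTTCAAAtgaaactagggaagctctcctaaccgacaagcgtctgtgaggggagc
Mcm6, chr1:128359676-128359905: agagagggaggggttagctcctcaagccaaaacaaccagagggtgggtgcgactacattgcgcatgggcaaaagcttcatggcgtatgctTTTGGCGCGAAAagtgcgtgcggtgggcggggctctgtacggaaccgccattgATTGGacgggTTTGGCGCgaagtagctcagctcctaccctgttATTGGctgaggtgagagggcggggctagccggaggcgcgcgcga

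The motifs searched, on both strands, were the cell cycle homology region TTTGAA or TTCGAA, the E2F site TTTCCCGC, TTTGGCGC, TTTCGCGC or TTTGCCGC, and the CCAAT box CCAAT. Ccnb1 held a CCAAT box at 99 and at 67 bases before its start site, counted from the motif's first base. Mki67 held the letters TTTGAA at 116 and 98 bases before the start and CCAAT boxes at 188, 166 and 141 bases. Top2a held cell cycle homology letters at 179, 140, 120 and 23 bases and CCAAT boxes at 189, 149, 98, 78 and 58 bases. Mcm6 was the member among these 4 with E2F letters, TTTGGCGC at 110 and at 47 bases and GCGCGAAA at 106 bases, of which the matches at 110 and 106 overlap, and it held CCAAT boxes at 57 and 14 bases.

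RefSeq promoters of the full 300 bases were found for 34 members and were not found for Ccna2, Ccne2, Aurkb, Kif20a, Tpx2, Mcm4, Gins1 and Gins2. Cell cycle homology letters stood in 19 of the 34, against 21.7% of 26994 genes with a promoter. CCAAT boxes stood in 27 of the 34, against 41.0% of all. E2F letters stood in 5 of the 34 (Mcm3, Mcm5, Mcm6, Mcm7 and Cdk1), against 2.60% of all. A match is a string of letters and was not shown to be bound in these tissues.

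Depth ran from 11.5 to 73.4 M counts in brain libraries (median 37.6) and from 5.82 to 57.5 M in liver libraries (median 32.9). The summed level of 5 neuron markers was 3108 to 6671 CPM in brains, where CPM is a gene's count per M counts of the TMM-scaled library, and 6.72 to 55.0 in livers. That of 5 hepatocyte markers was 28118 to 125489 CPM in livers and 11.2 to 5914 in brains, and without Ttr, the transthyretin gene, which the choroid plexus also expresses, 27420 to 121079 and 0.219 to 22.7. Every library therefore matched its labelled tissue on these lists. The 28-month brain 15 stood apart from the rest, with a median rank correlation of 0.866 with the other brains, and the 24-month brain 13 followed with 0.953. Among the livers the lowest were the 28-month liver 9 and the 24-month liver 13, and the lower of these 2 values was 0.919. In the members themselves the 3-month liver 12 and the 24-month livers 10 and 13 stood apart. For the comparisons of 28 with 3 months the member counts and the changes of the named liver members are given with and without liver 12, and the counts at 24 months with and without livers 10 and 13.

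In the aged brain both markers of cycling cells fell. Genes of mitosis fell in part, and most genes of the replication machinery did not pass the test. Lower were 2 of 7 cyclins and partners and 1 of 5 mitotic kinases and anaphase regulators. Of the kinetochore genes 2 of 4 were lower, and of the spindle genes 4 of 7. Of 38 members tested in the brain, 13 were lower at 28 than at 3 months and 1 was higher. The log2 fold changes of the lower members ran from -1.81 for Ccnb1 to -0.32 for Mcm6. Over all 18711 brain genes tested, 12% were called lower and 16.3% higher, and the median log2 fold change was 0.01 over all genes and -0.06 over the 38 members. Called means an adjusted p under 0.05 by edgeR's quasi-likelihood test, with Benjamini-Hochberg adjustment over all genes of the tissue. Aurkb, Melk, Bub1 and Ndc80 did not pass the filter on low counts in the brain. Their highest raw counts were 16, 12, 19 and 14 in any of the 82 brains and their medians 5, 4, 4 and 4 counts, and 43 to 52 of the 82 brains had more than 3 counts. They were not tested in the brain fit, and without the filter the tissue by age term described further on was called for Aurkb, Bub1 and Ndc80 and not for Melk.

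Both markers of cycling cells fell in the brain. Mki67 ran from 0.828 to 3.04 CPM (median 1.22) in the 3-month brains and from 0.115 to 2.65 CPM (median 0.499) in the 28-month brains. Of the 18 oldest brains, 16 were below the lowest of the 15 youngest, and 1 brain, number 2, lay far above the other old brains. The log2 fold change was -1.22 (SE 0.20, adjusted p = 2.34e-06). Top2a ran from 0.639 to 3.18 CPM (median 1.28) at 3 months and from 0.0874 to 0.909 CPM (median 0.445) at 28 months. Its fold change was -1.66 (SE 0.21, adjusted p = 3.94e-09), and 15 of 18 old brains were below the lowest young one. In bulk tissue, fewer cells of a type and less RNA per cell cannot be told apart.

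**Figure D1:**
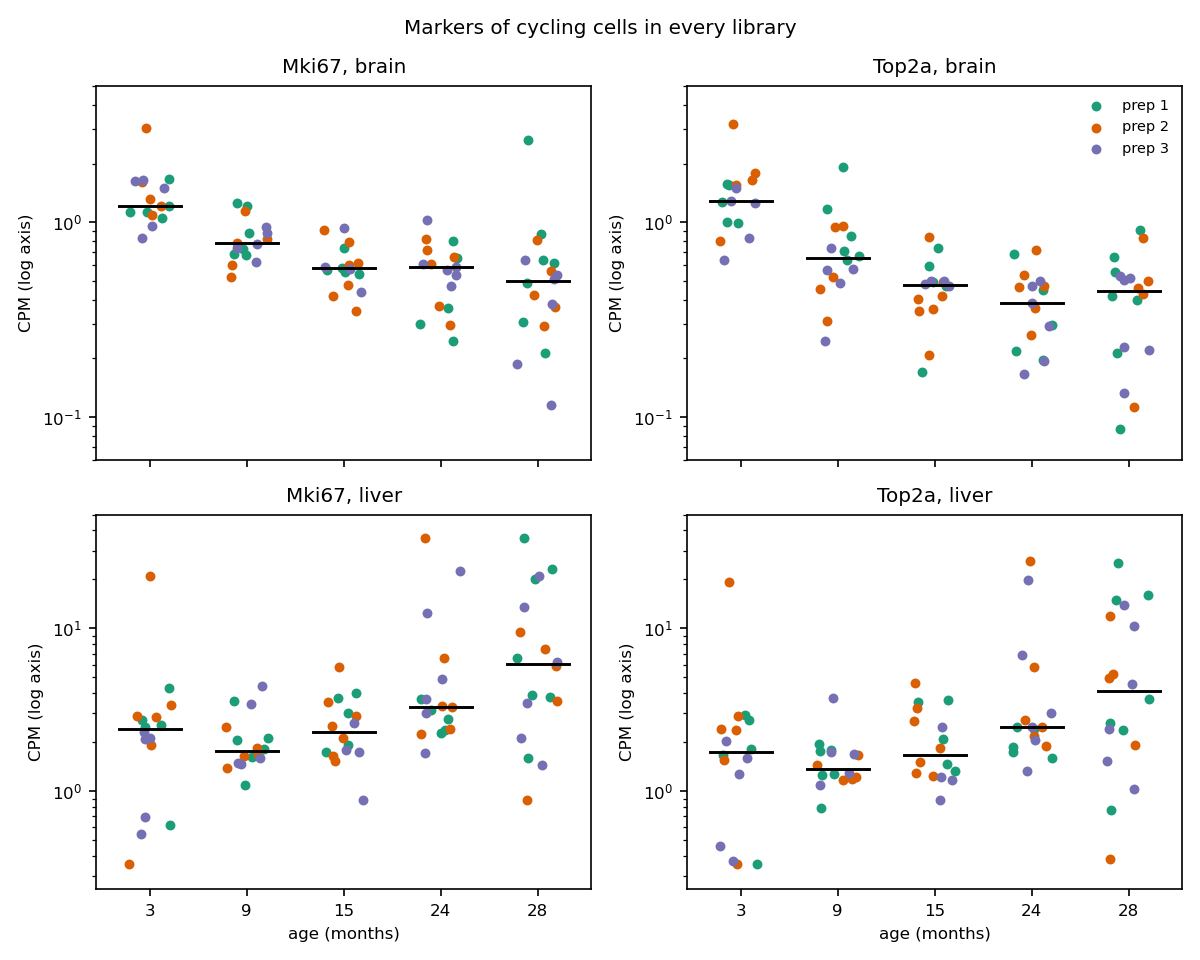
Levels of Mki67 and Top2a in every library of brain and liver by age in months. Each point is 1 library, the y axis is CPM of the TMM-scaled library on a log scale, colours mark the 3 preps and bars the age medians. Brain values fall between 3 and 15 months, and liver values at 24 and 28 months spread up to 35.9 CPM for Mki67.

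Of the cyclins and their partners, Ccnb1 and Cdk1 fell in the brain and the other 5 did not pass the test. Ccnb1, the mitotic cyclin, ran from 0.170 to 0.983 CPM (median 0.368) at 3 months and from 0 to 0.314 CPM (median 0.118) at 28 months. It had the most negative fold change of all members, -1.81 (SE 0.25, adjusted p = 2.75e-08), with 14 of 18 old brains below the lowest young brain. A brain was at 3 counts or fewer of Ccnb1 in 12 of 82 libraries. Cdk1, the kinase that cyclin B activates, changed by -0.80 (SE 0.24, adjusted p = 0.00811). Ccne1, the cyclin of S phase entry, was the cyclin with the highest CPM and had a median of 11.3 CPM at 3 months and 11.9 CPM at 28 months. Its ranges of 9.51 to 14.1 and 9.18 to 22.3 CPM overlapped, and the difference of 0.04 (SE 0.07) did not pass the test (adjusted p = 0.695).

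Among the mitotic kinases and anaphase regulators, Ube2c alone of 5 tested members fell. Ube2c is the ubiquitin-conjugating enzyme that works with the anaphase-promoting complex, and its exons overlap Tnnc2 on the opposite strand. It ran from 0.0581 to 0.694 CPM (median 0.304) at 3 months and from 0.0226 to 0.338 CPM (median 0.104) at 28 months, and the groups overlapped, with 7 of 18 old brains below the lowest young one. The change was -1.40 (SE 0.26, adjusted p = 2.45e-05), with 20 of 82 brains at 3 counts or fewer. Plk1, the polo-like kinase, had medians of 1.60 and 1.56 CPM and did not pass the test (-0.03, SE 0.09, adjusted p = 0.839).

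At the kinetochore, Cenpf and Nuf2 fell and Bub1b and Cenpe did not pass the test. Cenpf, a large protein of the outer kinetochore, ran from 0.726 to 2.05 CPM (median 1.19) at 3 months and from 0.219 to 2.64 CPM (median 0.540) at 28 months. Its change was -0.97 (SE 0.15, adjusted p = 3.56e-07), and 15 of 18 old brains were below the lowest young one. Nuf2, which binds microtubules with Ndc80, changed by -0.87 (SE 0.10, adjusted p = 2.58e-10), with 17 of 18 old brains below every young brain. Bub1b, a checkpoint protein, had the highest CPM of its role, with medians of 5.41 and 5.34 CPM (0.09, SE 0.13, adjusted p = 0.624).

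Of 7 spindle and cytokinesis genes, Prc1, Kif11, Kif20a and Tpx2 fell. Prc1, which bundles microtubules between the separating chromosomes and overlaps Rccd1 on the opposite strand, ran from 0.620 to 1.45 CPM (median 0.895) at 3 months and from 0 to 0.813 CPM (median 0.464) at 28 months. The change was -0.90 (SE 0.15, adjusted p = 1.42e-06), with 14 of 18 old brains below the lowest young one. Kif11, the motor that pushes the spindle poles apart, went from a median of 1.75 CPM (1.27 to 2.63) to 0.980 CPM (0.345 to 1.79), a change of -0.72 (SE 0.12, adjusted p = 2.07e-06). Tpx2, a spindle assembly factor, went from 2.03 CPM (1.33 to 2.78) to 1.48 CPM (1.03 to 2.32), a change of -0.43 (SE 0.10, adjusted p = 0.00039). Kif11 had 12 and Tpx2 5 of 18 old brains below the lowest young brain.

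Of 10 genes of the helicase and clamp in the brain, Mcm6 fell and Cdc45 rose, by 0.23 (SE 0.08, adjusted p = 0.0211), and the other 8 did not pass the test, with log2 fold changes from -0.16 (Mcm5, SE 0.07) to 0.32 (Gins1, SE 0.13). Mcm6 ran from 9.38 to 18.1 CPM (median 13.0) at 3 months and from 7.67 to 12.9 CPM (median 10.6) at 28 months, so the ranges overlapped. Its change was -0.32 (SE 0.07, adjusted p = 0.00023). Pcna, the sliding clamp, which also serves DNA repair, had medians of 32.8 and 33.8 CPM and did not pass the test (0.07, SE 0.05, adjusted p = 0.312). Per kilobase of exon, Pcna had the highest level of all 38 tested members at 3 months, 13.7 CPM per kilobase, against 0.121 for Mki67 and 0.142 for Top2a.

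In nucleotide synthesis the subunits of ribonucleotide reductase parted. Rrm2, the small subunit, whose protein is made mainly in S phase, ran from 1.42 to 2.08 CPM (median 1.79) at 3 months and from 0.656 to 1.37 CPM (median 1.10) at 28 months. The groups did not overlap, since all 18 old brains were below all 15 young ones, and the change was -0.70 (SE 0.09, adjusted p = 4.76e-09). Rrm1, the large subunit, ran from 13.0 to 16.7 CPM at 3 months and from 11.8 to 16.0 CPM at 28 months, a change of -0.05 (SE 0.04, adjusted p = 0.373). Tyms, thymidylate synthase, had medians of 2.17 and 2.12 CPM.

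The fall in the brain was early. Between 9 and 3 months, 2 members were called, Top2a at -0.95 (SE 0.21, adjusted p = 0.0165) and Rrm2 at -0.43 (SE 0.09, adjusted p = 0.00942), where 0.128% of all genes were called lower. At 15 months 9 members were lower than at 3 months, against 0.347% of all genes. At 24 months 14 were lower, against 3.86% of all genes. All 9 members of 15 months were among the 14 of 24 months and among the 13 of 28 months, and 13 of the 14 were called again at 28 months, the exception being Kif23. These comparisons share the 3-month brains, so their calls are not independent, and the overlap over all genes is not given here.

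After 15 months little more was detected in the brain. Between 24 and 15 months edgeR's quasi-likelihood test called 0 members, against 0.732% of all genes, with 3 members at an unadjusted p under 0.05, and DESeq2 and limma-voom each called 1. Between 28 and 24 months 1 member was lower, Nuf2 at -0.39 (SE 0.10, adjusted p = 0.0328), against 0.561% of all genes. That call was lost without the low-count filter, with the replicate number as a block and in each prep fitted alone. Over all ages together 16 of 38 members changed, against 20.6% of all genes. Mki67 medians were 1.22, 0.779, 0.579, 0.593 and 0.499 CPM from the youngest to the oldest age, and those of Top2a were 1.28, 0.655, 0.475, 0.386 and 0.445 CPM.

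Single brains moved the count at 28 months little and that at 9 months more. The 3-month brain 9 had the highest level of its age in 23 of 38 members, with Mki67 at 3.04 CPM. Without it, 28 against 3 months still called 14 members, while 9 against 3 months called 1, Rrm2. Without the 28-month brain 15, the library that stood apart, 28 against 3 months called 15 members and 9 against 3 months called 6. Within the preps, 12 of the 13 lower members were lower in all 3, and Cdk1, the other, was not tested in prep 3. Prep 1, 2 and 3 fitted alone called 5, 5 and 7 of the 13, with 4 to 7 brains per age. The shares of all genes called in these smaller fits are not given here.

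**Figure D2:**
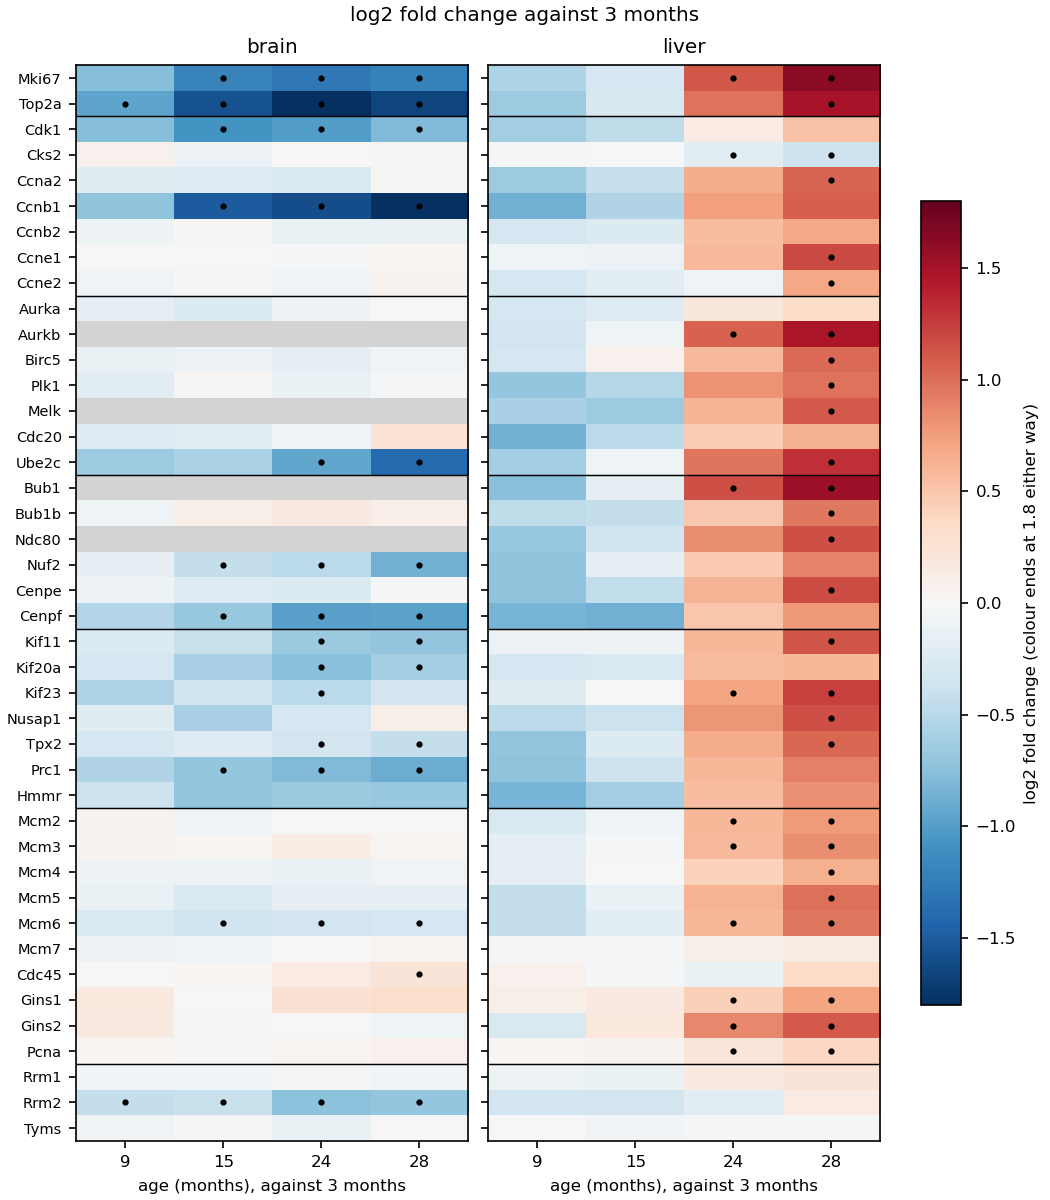
Log2 fold change of each member against 3 months at 9, 15, 24 and 28 months, in brain and liver. Rows are members ordered by role, colour runs from lower (blue) to higher (red) and ends at 1.8 either way, dots mark called changes and grey marks members not tested. In the brain the fall is present at 15 months in Mki67, Top2a, Cdk1 and Ccnb1, and in the liver 26 members are marked higher at 28 months and 10 at 24 months, the latter a share close to that of all genes and resting on the 24-month livers 10 and 13.

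In the aged liver the pattern was of the other sign and was carried unequally by single animals. Of 42 members, all tested, 26 were higher at 28 than at 3 months and 1, Cks2, was lower. Over all 15579 liver genes tested, 31.9% were called higher and 30% lower. The median log2 fold change was 0.93 over the members and 0.01 over all genes. By role, both markers, 3 of 7 cyclins and partners, 5 of 7 mitotic kinases and anaphase regulators, 4 of 6 kinetochore genes, 4 of 7 spindle genes, 8 of 10 helicase and clamp genes and 0 of 3 nucleotide synthesis genes were higher. For nucleotide synthesis, 1 of 3 had an unadjusted p under 0.05 in edgeR.

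The liver level of 1 young animal bears on all of these values. The 3-month liver 12, of prep 2, had the highest level of the 16 young livers in 41 of 42 members and was at least 2 times above the median of its age in 37. Its Mki67 was 21.1 CPM, where the next young liver had 4.32 CPM, and its Top2a was 19.2 CPM, where the next had 2.95 CPM. Without it, a choice made after the data were seen, 40 of 42 members were called at 28 months, 39 higher and Cks2 lower, against 33.3% of all genes called higher. Tyms and Rrm2 were the 2 not called, and the median log2 fold change was 1.47. All 27 members called with every liver were also called without liver 12.

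Mki67 in the liver ran from 0.355 to 21.1 CPM (median 2.40) at 3 months and from 0.881 to 35.9 CPM (median 6.04) at 28 months. With all livers 2 of 18 old livers were above the highest young one, and without liver 12 it was 10 of 18. The log2 fold change was 1.62 (SE 0.43, adjusted p = 0.000876), and 2.16 (SE 0.41) without liver 12. Top2a ran from 0.355 to 19.2 CPM (median 1.74) at 3 months and from 0.384 to 25.1 CPM (median 4.12) at 28 months, a change of 1.48 (SE 0.45, adjusted p = 0.00328), and of 2.09 (SE 0.42) without liver 12. Of the 26 higher members 7 moved by more than 1.5 times without liver 12, Top2a, Plk1, Melk, Ube2c, Cenpe, Nusap1 and Tpx2, and all 26 changes were greater without it, by 0.05 to 0.87 on the log2 scale. The 2 ages overlapped widely in both markers.

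Of the cyclins, Ccne1, Ccne2 and Ccna2 rose, Cks2 fell, and Cdk1, Ccnb1 and Ccnb2 did not pass the test. Ccne1 went from a median of 0.414 CPM (0.259 to 1.83) to 1.14 CPM (0.327 to 4.29), a change of 1.19 (SE 0.32, adjusted p = 0.00107). The ranges overlapped, with 2 of 18 old livers above the highest young one and 12 without liver 12, where the change was 1.47. Cks2, a small subunit that binds cyclin-dependent kinases, was the member that went down, from a median of 15.6 CPM (11.0 to 19.6) to 12.4 CPM (7.33 to 15.5), by -0.37 (SE 0.07, adjusted p = 7.1e-06), and by -0.36 without liver 12. Per kilobase of exon it had the highest level of all members in the liver at 3 months, 22.6 CPM per kilobase. Ccnb1, which changed most in the brain, had a difference of 1.08 (SE 0.51, adjusted p = 0.0604) in the liver. Without liver 12 its difference was 2.18 (SE 0.46, adjusted p = 3.68e-05), and the 3-month mean was 0.325 CPM where it was 0.771 CPM with that liver.

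The mitotic kinases and anaphase regulators that rose were Aurkb, Birc5, Plk1, Melk and Ube2c. Aurkb, the kinase of the chromosomal passenger complex, went from a median of 0.448 CPM (0.144 to 3.78) to 1.02 CPM (0.213 to 5.52), a change of 1.47 (SE 0.40, adjusted p = 0.00118). Birc5, survivin, a member of the same complex, went from 0.970 CPM (0.291 to 5.85) to 1.71 CPM (0.812 to 7.17), a change of 1.02 (SE 0.32, adjusted p = 0.00383). Ube2c went from 0.397 CPM (0.115 to 4.29) to 1.04 CPM (0.133 to 5.96), a change of 1.32 (SE 0.44, adjusted p = 0.00781). Without liver 12 the changes were 1.95 for Aurkb, 1.41 for Birc5 and 1.95 for Ube2c. In each of these 3 genes 1 or 2 old livers were above liver 12, and 11 to 13 were above the next highest young liver.

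Of the kinetochore genes, Bub1, Bub1b, Ndc80 and Cenpe rose. Bub1, the checkpoint kinase, was at 0.197 CPM (0 to 1.65) at 3 months and at 0.334 CPM (0.0226 to 2.86) at 28 months, a change of 1.55 (SE 0.48, adjusted p = 0.00431), with 20 of 83 livers at 3 counts or fewer. Bub1b went from 0.976 CPM (0.452 to 4.59) to 1.70 CPM (0.429 to 5.78), a change of 0.95 (SE 0.28, adjusted p = 0.00237). Without liver 12 the changes were 2.098 for Bub1 and 1.24 for Bub1b. The spread among old livers was wide in both genes, and 4 and 3 old livers were above every young one.

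Of the spindle genes, Kif11, Kif23, Nusap1 and Tpx2 rose. Kif23, a motor of cytokinesis, went from 0.903 CPM (0.404 to 4.83) to 1.77 CPM (0.406 to 9.95), a change of 1.23 (SE 0.29, adjusted p = 0.000182). Kif11 went from 1.07 CPM (0.317 to 5.85) to 1.93 CPM (0.319 to 9.63), a change of 1.13 (SE 0.34, adjusted p = 0.00277). Tpx2 went from 0.569 CPM (0.0865 to 7.58) to 1.04 CPM (0.113 to 4.19), a change of 1.03 (SE 0.43, adjusted p = 0.0308). Without liver 12 the changes were 1.55 for Kif23, 1.47 for Kif11 and 1.83 for Tpx2. No old liver exceeded liver 12 in Tpx2, and its call was lost in other settings (no filter, 2 ages only, or the 2 least similar livers left out), with adjusted p from 0.053 to 0.066.

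Among the replication genes, 8 of 10 of the helicase and clamp rose: Mcm2 to Mcm6, Gins1, Gins2 and Pcna. Mcm6 went from 5.18 CPM (3.58 to 27.1) to 8.80 CPM (4.47 to 29.4), a change of 0.95 (SE 0.26, adjusted p = 0.00133). Pcna went from 24.8 CPM (19.3 to 34.3) to 30.4 CPM (23.7 to 45.2), a small change of 0.37 (SE 0.07, adjusted p = 3.7e-06). Gins2, a subunit of the GINS complex, whose exons overlap Gse1 on the opposite strand over 2758 of 4097 bases, went from 0.474 CPM (0.262 to 3.12) to 1.19 CPM (0.226 to 3.40), a change of 1.11 (SE 0.31, adjusted p = 0.00176). Gins1, its partner, rose by 0.71 (SE 0.11, adjusted p = 5.74e-08), with 10 of 18 old livers above every young one, more than in any other member. Rrm1, the large reductase subunit, had medians of 9.87 and 10.7 CPM and did not pass the test (0.24, SE 0.11, adjusted p = 0.0532). Without liver 12 the changes were 1.26 for Mcm6, 0.42 for Pcna, 1.48 for Gins2 and 0.77 for Gins1, and Rrm1 was called at 0.34 (SE 0.10, adjusted p = 0.00262).

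**Figure D3:**
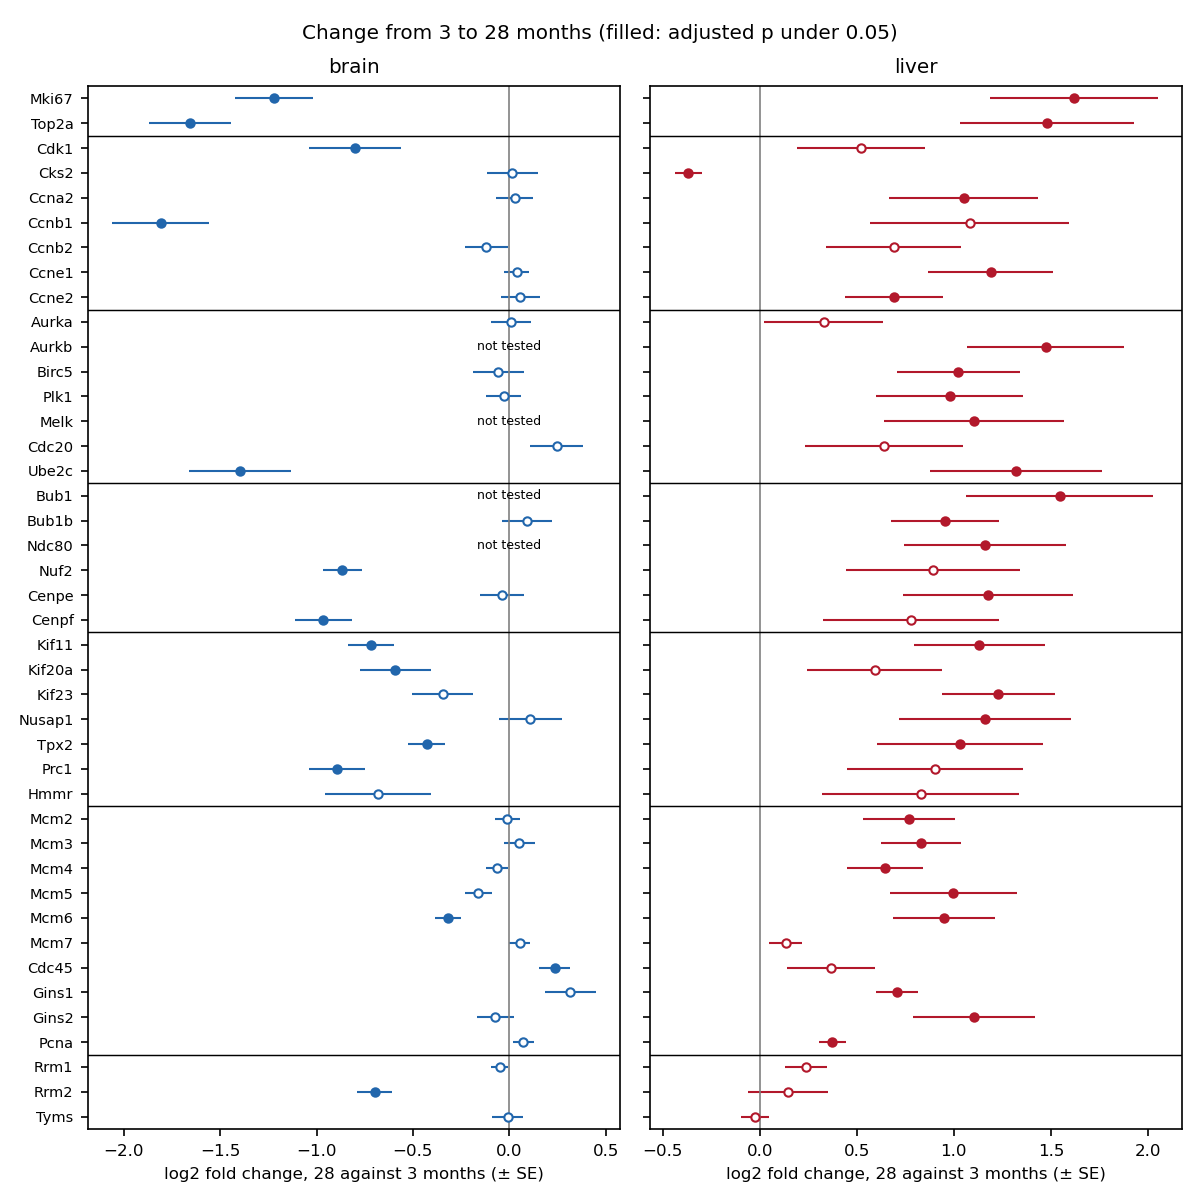
Log2 fold change between 28 and 3 months of each member in brain and liver, with bars of 1 SE. Members are ordered by role, filled points are called and open points are not. Mki67, Top2a, Ube2c, Kif11, Tpx2 and Mcm6 are called lower in the brain and higher in the liver.

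The rise in the liver came late. Between 9 and 3 months and between 15 and 3 months 0 members were called by edgeR's quasi-likelihood test, 0 had an unadjusted p under 0.05, and DESeq2 and limma-voom called 0 as well. The shares of all genes called were 4.69% and 7.32%. Without the 3-month liver 12 both counts were also 0. At 24 months 10 of 42 members were higher than at 3 months, a share close to the 25% of all genes called higher, and Cks2 was lower, against 24%. Between 24 and 15 months, a comparison without the 3-month livers, 17 members were higher, against 21.6% of all genes, and Cks2 was lower, against 14.4%. Between 28 and 24 months 1 member was higher, Ccne2 at 0.77 (SE 0.24, adjusted p = 0.0217), against 6.18% of all genes. Over all ages together 37 of 42 members changed, against 71.5% of all genes.

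At 24 months the calls rested on a pair of livers. The 24-month liver 13 had 35.9 CPM of Mki67 and liver 10 had 22.5 CPM, where the median of that age was 3.27 CPM. Without both, 24 against 15 months called 0 members in edgeR, with 2 at an unadjusted p under 0.05, and 24 against 3 months called 3, of which Gins1 was higher and Cks2 and Rrm2 were lower. In the same fit 28 against 24 months called 32 members, 31 of them higher, against 17% of all genes. That fit kept all 28-month livers, among them the 5 with Mki67 above 10 CPM. The livers left out were chosen for their member levels and only at 24 months, so this count does not test a change after 24 months. Leaving out liver 10 alone left 6 members for 24 against 15 months and 4 for 24 against 3 months, and leaving out liver 13 alone left 1 and 3. For these 2 comparisons the shares of all genes without liver 10, liver 13 or both are not given here. It is therefore not shown whether the loss of calls is particular to the members. Without the 3-month liver 12 instead, 24 against 3 months called 36 members, 35 of them higher, against 26.8% of all genes called higher.

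High levels were found in some livers of an age and not in others. Mki67 was above 10 CPM in 5 of 18 livers of 28 months, in 3 of 17 of 24 months, in 1 of 16 of 3 months and in 0 of 32 of 9 or 15 months. The 5 oldest were numbers 2, 9, 3, 4 and 1, at 35.9, 23.2, 21.0, 20.1 and 13.5 CPM. The third at 24 months was number 6, at 12.4 CPM. Among mice of 1 age, the median SD of the members' log2 CPM was 0.95, 0.41, 0.58, 0.98 and 1.15 from 3 to 28 months, where the median over all liver genes lay between 0.22 and 0.31. In the brain the members' median SDs were 0.24 to 0.41, where those of all brain genes were 0.16 to 0.38. At 28 months the brain values were 0.41 for the members and 0.38 for all genes.

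**Figure D4:**
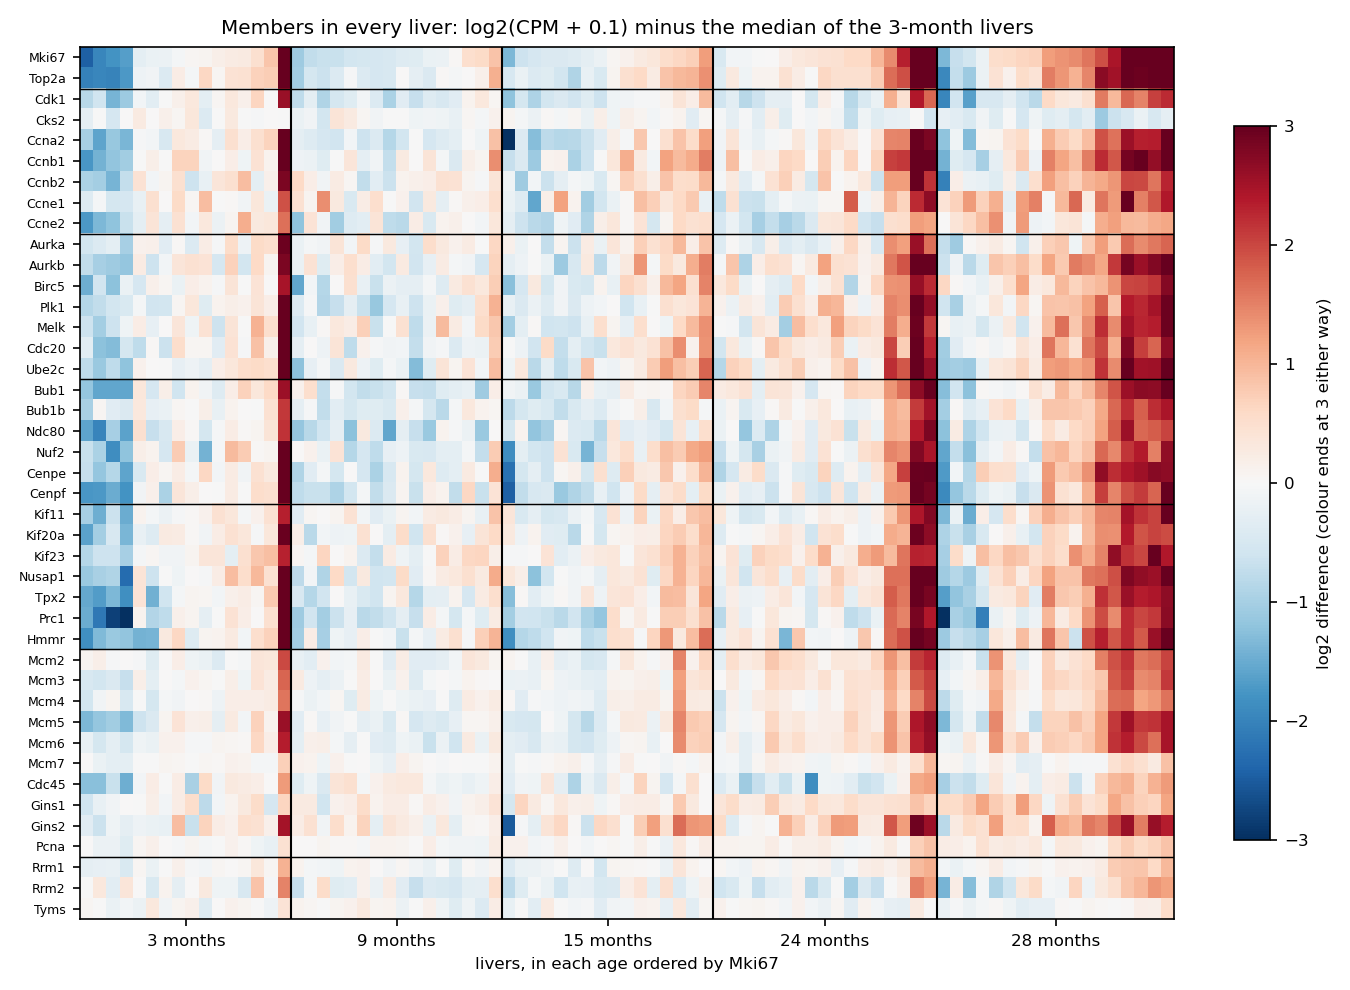
Level of each member in each liver, as log2(CPM + 0.1) minus the median of the 3-month livers. Columns are the 83 livers, grouped by age and ordered by Mki67 within an age, rows are members by role, and colour ends at 3 either way. Livers with high Mki67 are high in nearly all rows, with Cks2 and Tyms as pale rows.

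The preps differed in the liver. Of the 26 higher members, prep 1 fitted alone called 25, prep 2 called 0 and prep 3 called 24, and the median log2 fold changes over them were 1.75, -0.06 and 1.61. The shares of all genes called in these fits are not given here, so it is not shown whether prep 2 called few genes of any kind. In all 3 preps 11 of the 26 had the same direction. Prep 2 held liver 12, and prep 2 without it had a median log2 fold change of 0.68 over the 42 members, with Mki67 at 1.25 and Top2a at 1.35, and called 1 member, Cks2, which was lower. The 28-month livers with Mki67 above 10 CPM were in prep 1 (numbers 2, 4 and 9) and prep 3 (numbers 1 and 3), and not in prep 2.

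At the low end, the 3-month mice 10, 13, 15 and 16, of preps 3, 2, 1 and 3, had the 4 lowest Mki67 levels of their age in both tissues. Their livers had 0.692, 0.355, 0.616 and 0.547 CPM, where the next young liver had 1.92 CPM. Their brains had 0.955, 1.08, 1.06 and 0.828 CPM, where the next young brain had 1.12 CPM. Top2a was also lowest in these 4 mice, with 0.462, 0.355, 0.357 and 0.372 CPM in liver, where the next had 1.28, and with 0.827, 0.799, 0.991 and 0.639 CPM in brain, where the next had 1.00. The labels give nothing that sets these mice apart, and these observations were made after the values were seen.

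Whether the age change itself differed between the tissues was tested with the tissue by age term of a fit over both tissues. It differed for 33 of 38 members, against 49.2% of 14035 genes. In 32 of the 33 the liver change was more positive, and in Cks2 it was more negative (-0.35). The differences were greatest for Top2a at 3.15 (SE 0.52), Ccnb1 at 2.88 and Mki67 at 2.85 (SE 0.49). Mcm7, Aurka, Cdc20, Cdc45 and Tyms did not pass this test. Without the 3-month liver 12 the term was called for 35 members, against 51% of all genes, and with the mouse as a block for 32, all more positive in the liver, against 45%. The call lost with the mouse as a block was that of Cks2, which was also not called without the low-count filter. Ccnb2 and Nusap1, at adjusted p of 0.0477 and 0.04997 in the edgeR fit, were not called with RLE size factors or without the filter. Called lower in the brain and higher in the liver at 28 months were 6 of the 38 members, against 2.45% of the 14035 genes tested in both. They were Mki67, Top2a, Ube2c, Kif11, Tpx2 and Mcm6, which are 46.2% of the 13 lower brain members and 6 of the 22 higher liver members tested in both tissues. Without the 3-month liver 12 the count was 12 of 38, with Ccnb1, Cdk1, Cenpf, Kif20a, Nuf2 and Prc1 added, against 2.72% of 14063 genes.

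Within the liver the members varied together from mouse to mouse. After age and prep means were removed, the median Pearson r over 861 pairs of members was 0.77 across 83 livers, and 85.4% of pairs were over 0.5. Without livers 12, 13 and 10 named above the median was 0.70, and over the 28 members with a median of at least 20 counts it was 0.73. The same median over 2000 pairs of all liver genes was -0.04. Top2a had the highest median r with the other members, 0.87, and Cks2 (-0.05), Gins1 (0.31) and Tyms (0.35) the lowest. These points share libraries and preps, so the values describe the livers and carry no test.

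In the brain the median r over 703 pairs of members was 0.05 and 1.56% of pairs were over 0.5. The median over 2000 pairs of all brain genes, paired as in the liver, was -0.04. Over the pairs r ran from -0.66 for Ccne2 with Cenpf to 0.76 for Ccne2 with Mcm4. Mki67 and Top2a, the markers of cycling cells, had an r of 0.62 there. Over 79 brains, with the libraries that stood apart left out, the median r of the members was 0.03. Over the 31 members with a median of at least 20 counts the median r was 0.04. Between brain and liver of the same mouse, r per member over 82 mice had a median of 0.09 and ran from -0.11 (Plk1) to 0.39 (Mki67), with 33 of 38 within 0.3 of 0. Of the mice with high liver levels, the 28-month mouse 2 also had the highest brain Mki67 of its age, 2.65 CPM, and the highest brain Top2a, 0.909 CPM. The 24-month mouse 6 had the highest brain Mki67 of its age, 1.03 CPM, and ranked 16 of 17 in brain Top2a. The 24-month mice 10 and 13 ranked 9 and 13 of 17 in brain Mki67, the 28-month mice 3, 4, 9 and 1 ranked 4, 5, 6 and 12 of 18, and the 3-month mouse 12 ranked 8 of 15.

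**Figure D5:**
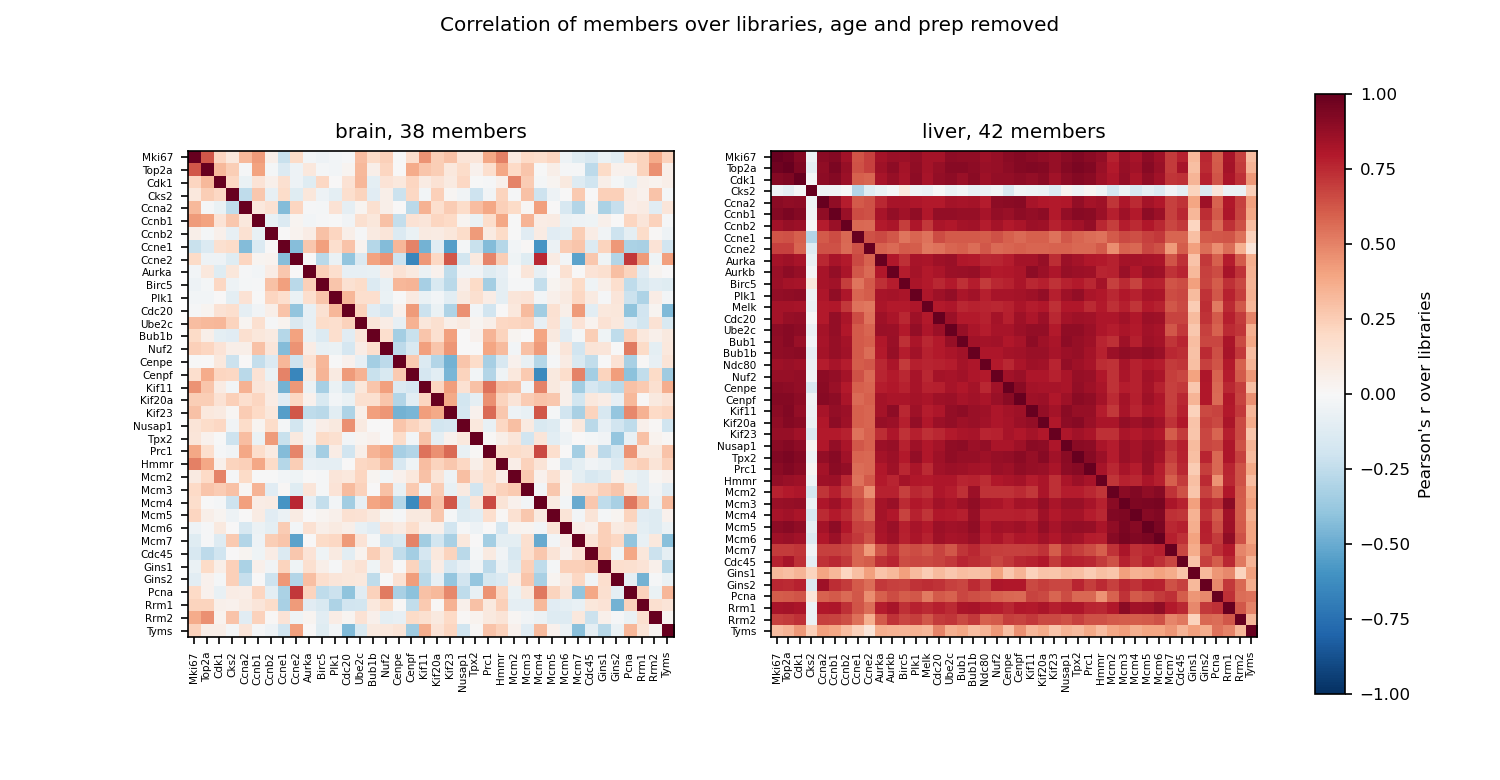
Pearson r between members across mice, after removal of age and prep means, for 38 members over 82 brains and 42 members over 83 livers. Rows and columns are members by role and colour runs from -1 to 1. Liver pairs have a median r of 0.77 and brain pairs one of 0.05.

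Other genes of the pathway were read from 6 lists of 77 genes. In the brain 26 of the 73 tested were called between 28 and 3 months, 11 higher and 15 lower, and the shares of all genes were the 16.3% and 12% given above. Of 26 other mitotic genes tested 10 were lower, with Pbk, a mitotic kinase, at -1.65 (SE 0.26, adjusted p = 4.82e-07), and Kif4 was higher. Of 11 E2F and pocket protein genes 3 were lower, with E2f8, a repressor of S phase genes, at -0.80 (SE 0.21, adjusted p = 0.00214). Of 9 origin licensing genes 4 were higher, with Mcm10 at 0.40 (SE 0.14, adjusted p = 0.0239), and of 14 polymerase genes 5 were higher and Pole2 was lower at -0.45 (SE 0.17, adjusted p = 0.0389). Cdk2 was higher and Ccnd2, cyclin D2, lower (-0.35, SE 0.07, adjusted p = 2.37e-05), and 0 of 7 MuvB genes were called by edgeR.

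In the liver 39 of 76 pathway genes were called, 27 higher and 12 lower, and the shares of all genes were 31.9% and 30%. Other mitotic genes were higher in 12 of 29, with Espl1, the separase that cuts cohesin, at 1.65 (SE 0.40, adjusted p = 0.000311), and Spc24 and Spc25 were lower. Of 9 licensing genes 3 were higher, with Cdc6, which loads the helicase, at 1.55 (SE 0.35, adjusted p = 0.000108), and 4 were lower. Among the MuvB partners Mybl2 rose by 1.05 (SE 0.25, adjusted p = 0.000215) and Foxm1 also rose, while Rbbp4 and Lin37 fell. Of 11 E2F and pocket genes 3 rose and 4 fell, and E2f8 fell by 1.46 (SE 0.29, adjusted p = 9.76e-06). Lig1, the ligase of replication, rose by 0.95 (SE 0.18, adjusted p = 3.7e-06) with 4 other polymerase genes, and cyclin D1, Ccnd1, rose by 0.86 (SE 0.21, adjusted p = 0.000264) with Ccnd2. With liver 12 left out, 55 of the 76 were called, 44 higher and 11 lower, and the other mitotic genes were higher in 23 of 29.

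Some markers of cell types that can divide moved with age too. In the brain 2 of 6 markers of oligodendrocyte precursors were lower at 28 months (Neu4 and Gpr17), against 12% of all genes. Pdgfra, Cspg4, C1ql1 and Lhfpl3 were not called lower. The summed level of the 6 went from a median of 198 CPM (179 to 225) to 144 CPM (114 to 172). Of 7 markers of newborn neurons and their precursors 3 were lower (Igfbpl1, Eomes and Sox11), with summed medians of 82.7 and 73.5 CPM. Microglia markers were higher in 4 of 5, against 16.3% of all genes, with summed medians of 232 and 265 CPM. Neuron markers were called in 0 of 5 by edgeR and endothelial markers in 2 of 5. No list had a marker at the floor in all brains. The part of these cells in the fall of the members was not tested.

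In the liver the markers of immune cells rose. All 7 B lineage markers were higher at 28 months, with summed medians of 29.1 CPM (11.4 to 58.5) and 148 CPM (55.8 to 1339). Higher as well were 5 of 6 T cell markers (summed medians 5.62 and 14.9 CPM), 5 of 5 macrophage markers (260 and 511 CPM) and 4 of 4 tested neutrophil markers (2.37 and 27.4 CPM). Hepatocyte markers were called in 2 of 5 (Serpina1c and Ttr, lower), with summed medians of 90730 and 98956 CPM. The shares of all liver genes were 31.9% higher and 30% lower. The same numbers of markers were called in each of these lists without the 3-month liver 12.

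Each liver with Mki67 above 10 CPM had a macrophage sum above the median of its age, and these livers differed in the B lineage and neutrophil lists. At 28 months these livers, numbers 1, 2, 3, 4 and 9, ranked 3, 2, 4, 5 and 1 of 18 in the macrophage sum. In the T cell sum they ranked 5, 3, 4, 2 and 1. At 24 months livers 13, 10 and 6 ranked 4, 1 and 3 of 17 in the macrophage sum and 1, 2 and 10 in the T cell sum. The B lineage sum was below the median of its age in the 24-month liver 6 and the 28-month liver 1, the T cell sum in the 24-month liver 6 and the neutrophil sum in the 28-month liver 2. The 3-month liver 12 had the highest sums of its age for T cells (23.2 CPM), macrophages (674 CPM), neutrophils (15.3 CPM) and B lineage (58.5 CPM), and the lowest hepatocyte sum (63384 CPM). The 24-month liver 13 had the highest B lineage sum, 2955 CPM, and the highest T cell sum, 72.5 CPM, and liver 10 had the highest neutrophil sum, 457 CPM, and macrophage sum, 824 CPM. At 28 months the B lineage sum was highest in liver 2 (1339 CPM), the macrophage sum in liver 9 (1810 CPM) and the neutrophil sum in liver 3 (541 CPM). Other lists were high in some of the same livers. The sum of the germinal centre B cell markers, of which only S1pr2 was tested, was highest of its age in 3 of them. These were the 3-month liver 12 (9.89 CPM, median of that age 8.47), the 24-month liver 10 (16.4 CPM, median 10.4) and the 28-month liver 4 (18.9 CPM, median 9.60). In the 28-month liver 1 it was below the median (9.31 CPM). Of the fetal and tumour liver genes 2 of 3 tested were higher at 28 than at 3 months (Gpc3 and H19) and Afp was lower, and of 5 liver endothelium markers 2 were higher (Cdh5 and Pecam1) and Clec4g was lower. The summed fetal and tumour liver genes were highest of their age in the 24-month liver 10 (6.77 CPM, median of that age 2.61) and the 28-month liver 3 (4.17 CPM, median 3.28), and at 3 months in liver 10 (3.87 CPM, median 2.21), which had low Mki67. Liver endothelium was highest in the 28-month liver 9 (395 CPM, median 201), the 24-month liver 6 (243 CPM, median 203) and the 3-month liver 12 (243 CPM, median 210). Erythroid precursor markers, with 3 of 5 tested higher and 1 lower at 28 months, were highest in livers with Mki67 under 10 CPM at 3, 24 and 28 months (numbers 15, 5 and 18), and so were bile duct markers, with 2 of 4 higher (numbers 15, 8 and 14). The part of these cells in the rise of the members was not tested.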

How the data were processed

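Brain and liver RNA of 82 and 83 samples was measured by sequencing of polyadenylated RNA. The authors deposited raw counts, 1 table for each tissue, over 55471 Ensembl identifiers, all whole numbers. The submitters' processing notes name cutadapt 2.8, HISAT2 2.1.0, SAMtools 1.9, featureCounts (Subread 2.0.1) and the builds GRCm38.p6 and mm10. The annotation and the strand option of the counting are not given in the sources used here. A strand-blind count would add reads of genes that overlap on the opposite strand: Ccna2, Ccne2, Plk1, Cdc20, Ube2c, Kif20a, Nusap1, Prc1, Mcm7, Cdc45 and Gins2 have such a neighbour, and Ccnb1, Ccnb2, Pcna and Tyms have pseudogenes. Symbols from a table of mouse gene names matched 55144 identifiers.

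Each tissue was fitted with edgeR 4.0.16 in R 4.3.3 on the deposited counts of all ages (filterByExpr by age, TMM, age and prep as terms, quasi-likelihood test, two-sided). P-values were adjusted by Benjamini-Hochberg over all genes of a comparison and called under 0.05. SE was taken as the size of the log2 fold change over the root of its F statistic. Levels are CPM of the TMM-scaled library, and a library is at the floor with 3 counts or fewer, a bound that covers counting error only. The tissue by age term came from 1 fit of both tissues. Correlations used log2 CPM with a prior count of 2. Alternatives were DESeq2 1.42.0, limma-voom 3.58.1 with quality weights, RLE factors, no filter, the replicate number as a block, each prep alone, 2 ages only and libraries left out. Scripts were tested on simulated data.

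Within groups, 634 brain and 649 liver pairs of libraries were compared over genes with at least 50 counts, and the lowest chi-square per gene was 5.83 and 9.91, where counting noise gives 1, so no library of a group was a repeat of another of that group, and pairs across groups were not compared. Within a tissue each library is a separate mouse by its label. Brain and liver of 1 mouse share an age and number, so the mouse paired them: the median correlation of their deviations over 82 mice was 0.05. Numbers at different ages do not name the same animal.

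The members, the lists and the tests were chosen with earlier results of these data known. In each tissue and role the text names the called member with the greatest absolute change from 3 to 28 months (where none was called, the one with the lowest p) and the one with the highest mean CPM, also Mki67, Top2a, members called in opposite directions, members called between 9 and 3 months and members below the filter. Of each pathway list and tissue it names the called gene with the greatest change. Other names were chosen after their values were seen.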

Additional observations from a re-analysis of the deposited data

Results flagged for a closer look

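The change from 3 to 28 months differed between liver and brain, by the tissue by age term of the edgeR fit over both tissues at an adjusted p under 0.05, for 33 of the 38 members tested in both. Values are the liver log2 fold change minus that of the brain, with all libraries. Without the 3-month liver 12 the median over the 38 went from 1.08 to 1.56, Aurka and Cdc20 were called too, and 11 of the 33 moved by more than 1.5 times: Ccnb1 (4.00), Top2a (3.74), Ube2c (3.35), Hmmr (2.70), Cenpf (2.55), Prc1 (2.51), Nuf2 (2.37), Tpx2 (2.28), Cenpe (1.96), Plk1 (1.68) and Nusap1 (1.67). The markers of cycling cells differed by 3.15 (Top2a) and 2.85 (Mki67). Among the cyclins and partners the values were 2.88 for Ccnb1, 1.34 for Cdk1, 1.19 for Ccne1, 1.04 for Ccna2, 0.82 for Ccnb2 and 0.67 for Ccne2, and Cks2 had the opposite sign, at -0.35. The call of Cks2 was lost with the mouse as a block and without the low-count filter, and those of Ccnb2 and Nusap1 with RLE size factors and without the filter.

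Among the mitotic kinases and anaphase regulators the values were 2.72 for Ube2c, 1.10 for Birc5 and 1.02 for Plk1. At the kinetochore they were 1.75 for Nuf2, 1.75 for Cenpf, 1.23 for Cenpe and 0.89 for Bub1b. Among the spindle and cytokinesis genes they were 1.87 for Kif11, 1.81 for Prc1, 1.60 for Kif23, 1.496 for Hmmr, 1.46 for Tpx2, 1.20 for Kif20a and 1.06 for Nusap1. Among the helicase and clamp genes they were 1.29 for Mcm6, 1.20 for Gins2, 1.18 for Mcm5, 0.81 for Mcm2, 0.80 for Mcm3, 0.74 for Mcm4, 0.42 for Gins1 and 0.34 for Pcna. In nucleotide synthesis they were 0.87 for Rrm2 and 0.32 for Rrm1. In 24 of the 38 tested members the brain value was negative and the liver value positive.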

How the results depend on the processing

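Prep by prep the brain counts shrank, with 4 to 7 brains per age: 6, 5 and 7 members in preps 1, 2 and 3 for 28 against 3 months, 3, 7 and 2 for 24 against 3, 0, 2 and 0 for 15 against 3, 0 in each for 9 against 3 and for 28 against 24 months, and 5 in each over all ages. In the liver prep 2 called 1 member for 28 against 3 months and 3 over all ages. Preps 1, 2 and 3 called 0, 0 and 28 for 24 against 3 months, 0, 3 and 1 for 24 against 15 and 30, 0 and 0 for 28 against 24. In prep 2 the liver log2 fold change of 28 against 3 months reversed for 15 of the 26 higher members, Aurkb (-0.18), Birc5 (-0.10), Bub1 (-0.55), Bub1b (-0.0061), Ccna2 (-0.27), Ccne2 (-0.31), Mcm4 (-0.017), Mcm5 (-0.35), Mcm6 (-0.12), Melk (-0.24), Ndc80 (-0.29), Nusap1 (-0.42), Plk1 (-0.36), Tpx2 (-0.33) and Ube2c (-0.15), and the cause was not tested. Prep 2 without the 3-month liver 12 called 1, 8, 0 and 18 liver members for 28 against 3, 24 against 15, 28 against 24 months and all ages.

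DESeq2 and voom called 7 brain members each for 9 against 3 months, 1 each for 24 against 15 and 2 each for 28 against 24. In the liver voom called 7, 4 and 9 for 24 against 3, 24 against 15 and 28 against 24 months, and DESeq2 2 for the last. Without the filter 24 against 3 months called 7 liver members and 28 against 24 months 0 brain members. Without the 2 least similar libraries 9 against 3 and 28 against 24 months called 7 and 2 brain members, and 24 against 3, 24 against 15 and 28 against 24 months 3, 1 and 5 liver members. Without the 24-month livers 10 and 13, chosen after seeing the data, and with every 28-month liver kept, the same liver comparisons called 3, 0 and 32. The replicate block, where numbers do not pair mice across ages, called 0 brain members for 28 against 24 months and moved no other count of a tissue by over 1.5 times. The mouse as replicate block called 32 members in the tissue by age term.

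Leaving out each library of 3 and 28 months in turn gave 14 to 16 brain members for 28 against 3 months. The other brain comparisons were refitted without the 3-month brain 9, the 28-month brain 2 or the 28-month brain 15 only, chosen after seeing the data. They gave 1 to 6 members for 9 against 3, 0 to 1 for 24 against 15 and 1 to 2 for 28 against 24. In the liver, leaving out each library in turn gave 23 (without the 28-month liver 2) to 40 (without the 3-month liver 12) for 28 against 3 months. For the other liver comparisons only the 3-month liver 12 and the 24-month livers 10 and 13, chosen after seeing the data, were left out. They gave 3 to 36 for 24 against 3 and 1 to 26 for 24 against 15. The range for 28 against 24 was 0 to 8 and takes in prep 2 alone, so it is not a range over single libraries. A median of 20 counts per library was reached by 31 of 38 tested brain members and by 28 of 42 liver members, and the others are measured less precisely.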
